A study of Betula luminifera with 2 samples.

Results

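Of the 326 candidate small RNAs predicted in Betula luminifera, a timber birch, 42 had a length other than the usual 21 or 24 nt. They were found by the length of the listed mature sequence, among entries with no match to a miRBase precursor and a predicted hairpin on a genome contig. Each distinct sequence was counted once, with its reads summed over its entries, and the whole table held 505 distinct sequences. By length there were 18 sequences of 22 nt, 14 of 23 nt, 5 of 25 nt, 3 of 18 nt and 2 of 19 nt. No candidate of 20 nt was listed, a count of 0 of 326 that allows a share of up to 0.920% (3 counts of the total). The 42 sequences made up 12.9% of the candidates (exact binomial 95% interval 9.45 to 17.0%).

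All material came from clone G49#, as tissue culture seedlings aged 2 months, and RNA from root, stem and leaf was pooled in equal amounts. The data are a single library of each kind, 1 of small RNAs and 1 of the degradome, with no replicates, no treatment and no control, so differences below have no replicate check and are given without a test. The small RNA table held 607592 listed reads, of which 8656.5 fell on candidates. The tissues cannot be told apart in a pool of 1 clone, and no tissue marker could be checked because the tables hold no named genes. In pooled tissue, fewer cells that make a small RNA and less of it per cell cannot be told apart. Intervals cover counting error only, since reads amplified by PCR and not tagged by molecule may be copies of each other. Length is that of the listed sequence, and whether its reads include isoforms of neighbouring lengths is not stated.

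Plant microRNAs are cut from hairpin transcripts by a Dicer-like enzyme as a duplex of both arms, in which each strand runs a little past the other at its 3′ end. Most plant microRNAs are 21 nt long, while small RNAs of 24 nt are best known for guiding DNA methylation at repeats. MicroRNAs of 22 nt form a class of their own because they can start the production of secondary small RNAs from a cleaved transcript, and they often come from hairpins with an uneven bulge. The first base helps to sort small RNAs among ARGONAUTE proteins, with uracil typical of the main microRNA effector.

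The sequences below carry the results: the 6 sequences of 22 nt with the most reads, in descending order, with bases 2 to 8 (the seed) in capitals and T standing for U.
PC-3p-5232_125: tGAATAGTcgatataataggac
PC-5p-10590_63: tTTTAACCcttgagatttgatt
PC-3p-10563_64: tCAGCAACtttgaaacacctcc
PC-5p-28084_20: cAACATCCcaggatacatgaac
PC-5p-47295_10: tTTCCAGGatagagggcatttt
PC-5p-20282_34: tTGTTTTCaagatcacgaattt

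The next set holds the most-read sequence at each of 25, 19, 23 and 18 nt, and also PC-3p-58959_8, the second at 23 nt, which is shown for its near copies among 24-nt candidates. Capitals again mark bases 2 to 8.
PC-5p-5295_120: tGCGCGAGttgcggcggaccggggc
PC-5p-10032_69: cAAACAGGgctccatgacc
PC-5p-20699_30: gTAATGAAtgtattggattagcc
PC-3p-58959_8: tTCATGTGtcctgggctgatgca
PC-5p-37811_14: aTACGACTgacatataat

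No seed was shared between members of the set: the 42 sequences had 42 distinct seeds. None of the 42 shared its seed with a miRBase-matched sequence, which allows up to 7.14%. A seed was shared with a 24-nt candidate by 5 of the 42. These included PC-5p-28084_20 with PC-5p-16296_40 (112.5 reads) and PC-5p-37811_14 with PC-5p-107384_4 (9 reads). Some 24-nt candidates also shared a seed with each other, and the share of other candidates with a shared seed was not counted.

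Together the 42 sequences held 1216.5 reads, 14.1% of the candidate reads (13.3 to 14.8%) and 0.200% of all listed reads. Their share of candidate reads was 16.4% with the most-read candidate, which is 21 nt long, left out. Their median was 7 reads (interval 2 to 14), against 12.5 for 21-nt candidates (9.5 to 18.5) and 9.25 for 24-nt candidates (8 to 10). At most 2 reads were listed for 16 of the 42 (38.1%, 23.6 to 54.4%), against 7 of 72 candidates of 21 nt (9.72%, 3.999 to 19.01%) and 36 of 212 of 24 nt (17.0%, 12.2 to 22.7%). The set thus had a larger share of barely read sequences than either common length, and its interval overlapped neither of theirs.

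A few sequences carried most of these reads. The 25-nt PC-5p-5295_120 had 194 reads, the 19-nt PC-5p-10032_69 had 188 and the 23-nt PC-5p-20699_30 had 181. These 3 held 46.3% of the reads of the set and ranked 7, 8 and 9 among all 326 candidates. They were followed by 8 sequences of 22 nt in a row. The first 10 sequences together held 84.7% of the reads, and the other 32 had at most 20 reads each.

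Apart from 1 high value each at 19, 23 and 25 nt, the sequences outside 22 nt were sparse. The 23-nt sequences ranged from 1 to 181 reads with a median of 2.5, and the next after PC-5p-20699_30 was PC-3p-58959_8 with 17. At 25 nt the range was 1 to 194 reads with a median of 2.5, and PC-3p-105915_4 came next with 18. The 18-nt sequences PC-5p-37811_14, PC-3p-321173_3 and PC-3p-1103724_1 had 17, 7 and 1 reads. Beside PC-5p-10032_69, the only other 19-nt sequence was PC-5p-107654_4 with 8 reads.

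The 22-nt sequences were spread more evenly. Reads were 142 for PC-3p-5232_125, 97 for PC-5p-10590_63, 74 for PC-3p-10563_64, 48.5 for PC-5p-28084_20, 46 for PC-5p-47295_10 and 36 for PC-5p-20282_34. The group held 538 reads, 6.21% of the candidate reads (5.72 to 6.74%), with a median of 12.5 (2 to 46), the same median as the 21-nt candidates. At least 10 reads were listed for 11 of 18 (61.1%, 35.7 to 82.7%), against 44 of 72 candidates of 21 nt (61.1%, 48.9 to 72.4%) and 7 of 24 sequences of the other unusual lengths (29.2%, 12.6 to 51.1%). At most 2 reads were listed for 6 of 18 sequences of 22 nt (33.3%, 13.3 to 59.01%), against 9.72% of the 21-nt candidates (3.999 to 19.01%), with overlapping intervals. The 22-nt sequences thus shared their median with the 21-nt candidates but had a larger share of barely read sequences, and the interval of their median also holds the 24-nt median of 9.25.

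**Figure D1:**
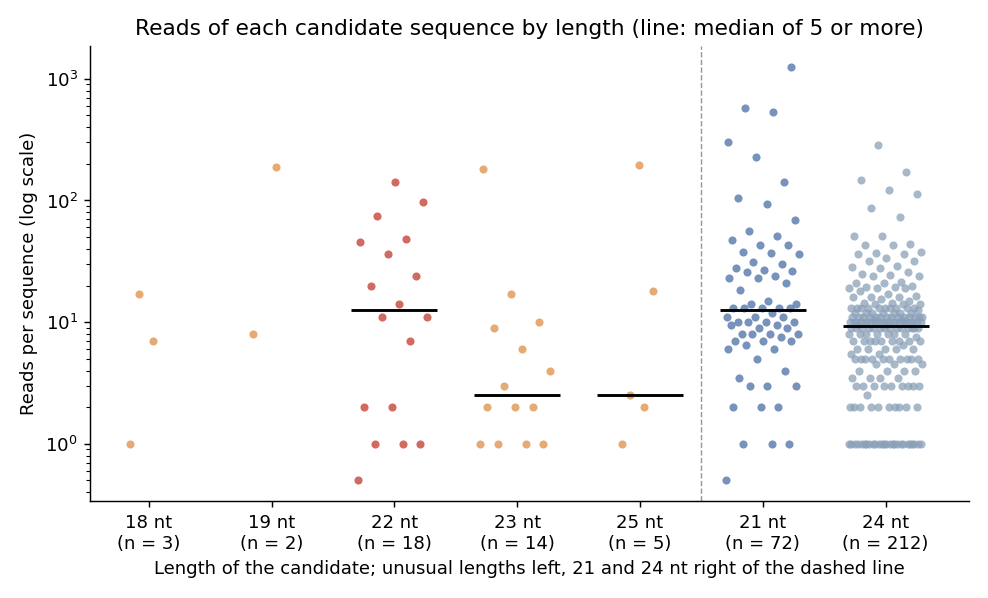
Reads per distinct sequence on a log scale, by length, with the unusual lengths left of the dashed line and the 21- and 24-nt candidates right of it; each point is 1 sequence and the line is the median where there are 5 or more. The 22-nt sequences centre on 12.5 reads, as do the 21-nt candidates, while the 23- and 25-nt sequences centre on 2.5 with a single sequence near 200 each (181 and 194 reads).

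Uracil was the most common first base of the 22-nt sequences. It opened 13 of 18 (72.2%, 46.5 to 90.3%), against 44.4% of 21-nt candidates (32.7 to 56.6%), 18.9% of 24-nt candidates (13.8 to 24.8%) and 57.5% of the 179 miRBase-matched sequences. Adenine opened 2 of 18 (11.1%, 1.38 to 34.7%), against 23.6% of 21-nt candidates and 72.6% of 24-nt candidates (66.1 to 78.5%). The 22-nt interval for either base lay apart from that of the 24-nt candidates and overlapped that of the 21-nt candidates. Cytosine opened 3 of the 22-nt sequences, among them PC-5p-28084_20, and guanine none, which allows up to 16.7%.

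The other unusual lengths were more mixed. Of 24 sequences, 11 began with uracil (45.8%, 25.6 to 67.2%), 9 with adenine (37.5%, 18.8 to 59.4%), 2 with cytosine and 2 with guanine. Uracil opened 8 of 14 sequences of 23 nt, and adenine opened 3 of 5 sequences of 25 nt and 3 of 5 of 18 or 19 nt. Adenine-first sequences held few of the reads: over all 42 sequences, adenine opened 26.2% (13.9 to 42.04%) but 4.398% by reads, and 2 of the 18 with at least 10 reads. Uracil opened 57.1% of the 42 (41.0 to 72.3%) and 59.1% by reads.

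**Figure D2:**
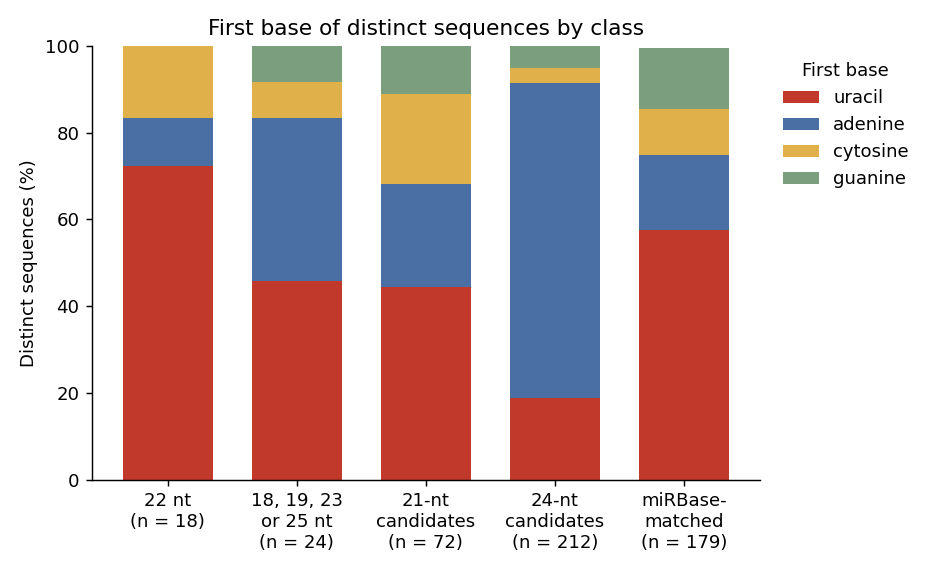
First base of distinct sequences as a percentage of each class, for the 22-nt sequences, the other unusual lengths, the 21- and 24-nt candidates and the miRBase-matched sequences; a matched sequence that begins with an uncalled base is not drawn. Uracil opens 72.2% of the 22-nt sequences and adenine 72.6% of the 24-nt candidates.

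The hairpins of the set were compared with those of the other candidates in the listed values. Of the 41 precursors, 28 also carry a 21- or 24-nt candidate and so stand in both groups, which draws the groups together. The folding index (predicted folding energy per length and GC content, as deposited by the authors) had a median of 1.3 (1.1 to 1.5) over the 41 precursors of the set, against 1.4 for 21-nt and 1.3 for 24-nt candidates. For the 16 precursors of 22-nt sequences the median was 1.5 (1.1 to 1.7). No precursor of the set was under 0.9, nor was any of a 21- or 24-nt candidate. The precursors had a median length of 163 nt (147 to 169), against 148.5 nt for 21-nt and 155 nt for 24-nt candidates, and ranged from 79 nt for PC-3p-321173_3 to 263 nt for PC-3p-1240550_1. Because a candidate is defined by a predicted hairpin, these values are in part set by that choice.

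In base composition the listed sequences had a median GC content of 39.1% (36.4 to 45.5%), against 45.2% (38.1 to 47.6%) at 21 nt and 41.7% at 24 nt. The range was wide, with 22.2% in the 18-nt PC-3p-1103724_1 and 80% in the 25-nt PC-5p-5295_120, the highest of all 326 candidates.

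Most listed stretches lay within a well-paired stem. In structures predicted with RNAfold, the median number of unpaired bases was 1 for the 42 sequences (interval 1 to 2), 1 for 21-nt and 2 for 24-nt candidates. For the 22-nt sequences it ranged from 0 to 3. PC-5p-28084_20 and PC-5p-47295_10 were paired along their whole length, and PC-3p-5232_125 had 3 unpaired bases. An exception, named after its values were seen, was the 25-nt PC-3p-537673_1 with 1 read, of which 19 bases were unpaired.

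The other arm of the hairpin was also listed for 36 of the 42 sequences (85.7%, 71.5 to 94.6%), against 73.6% of 21-nt candidates (61.9 to 83.3%) and 74.1% of 24-nt candidates (67.6 to 79.8%). These intervals overlap. The other arm was listed for all 16 sequences of the set with at most 2 reads, and for 14 of the 18 with at least 10 reads (77.8%). Whether the higher share of the set goes back to its barely read sequences was not tested. For the 22-nt sequences the other arm was listed for 15 of 18. PC-3p-5232_125, the most-read 22-nt sequence (contig_203781, plus strand, positions 841 to 946), had no other arm listed. Hairpins with very uneven arms were those of PC-5p-20699_30 with 181 reads against 1 for its other arm PC-3p-572118_1, and PC-5p-10590_63 with 97 against 1 for PC-3p-1394964_1.

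Whether the listed arms face each other as a duplex was read from the folded hairpins. A 3′ overhang is the number of bases by which an arm runs past the base that faces the 5′ end of the other arm, and a negative value means that it stops short. Of the 33 hairpins of the set with both arms listed, 8 had overhangs of 1 to 3 nt on both arms (24.2%, 11.1 to 42.3%), against 12 of 102 hairpins of 21- and 24-nt candidates alone (11.8%, 6.23 to 19.6%). The intervals of these shares overlap. Of the hairpins without a member, 4 of 19 with both arms of 21 nt passed (21.1%, 6.05 to 45.6%). With both arms of 24 nt it was 8 of 64 (12.5%, 5.55 to 23.2%), and with 1 arm of each length 0 of 19 (0 to 17.6%). In an even stem the overhangs differ by the difference in arm length, so a 21-nt arm against a 24-nt arm could hardly pass. Some pairs of the set were as uneven in length. The limits of 1 and 3 nt were chosen after the values were seen.

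Those 8 hairpins held 7 distinct pairs, shown here with the 5′ arm first because they are the pairs within these limits in the predicted fold. Whether they were cut by a Dicer-like enzyme was not tested. Capitals mark bases 2 to 8.
PC-5p-85554_5: aGGTTTTGaaagttgctgaatt
PC-3p-10563_64: tCAGCAACtttgaaacacctcc
PC-5p-104303_4: tACGCAGGagagatggcgccgt
PC-3p-655791_1: aGCGTCATctctcctgcatagt
PC-5p-20282_34: tTGTTTTCaagatcacgaattt
PC-3p-1057498_1: cTCGTGATcgtgaaaacaaact
PC-5p-68871_6: tAGGATGGaacatctgatagaa
PC-3p-86184_5: cGGTCAGCtgttccatccttg
PC-5p-10032_69: cAAACAGGgctccatgacc
PC-3p-24721_24: gTTATGGAgccatgtttgtgc
PC-5p-5295_120: tGCGCGAGttgcggcggaccggggc
PC-3p-104053_4: cTGGTCCGccacaactcgcgcact
PC-5p-70114_6: aTCAGTCCaggacacatgaacagt
PC-3p-797083_2: tGTTCATGtgtcctgggctgatc

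The first 3 pairs had 22 nt on both arms, and they were the 3 hairpins of the set built that way. On contig_215746 (minus strand, 1235 to 1435) PC-5p-85554_5 had 11 reads and PC-3p-10563_64 had 74, with overhangs of 3 and 2 nt for the 5′ and the 3′ arm. On contig_2332 (minus strand, 1868 to 1994) PC-5p-104303_4 had 11 reads and PC-3p-655791_1 had 1, with 2 nt on either side. The hairpin of contig_66285 (plus strand, 1073 to 1231) gave 36 reads of PC-5p-20282_34 and 2 of PC-3p-1057498_1, with 3 nt on either side. In each of the 3 pairs both strands were found, with more reads on 1 arm than on the other. Each pair also had at least 1 arm that differed from its contig at 1 base, written as contig base, position and listed base. These were G6A in PC-3p-10563_64, G22T in PC-3p-655791_1, C20T in PC-5p-20282_34 and T1C in PC-3p-1057498_1.

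Another pair, outside the rule for named sequences and named after its values were seen, was uneven in length: the 22-nt PC-5p-68871_6 with 7 reads faced the 21-nt PC-3p-86184_5 with 6 (contig_65633, minus strand, 94 to 235), with overhangs of 2 and 1 nt. In all, 7 of the 15 sequences of 22 nt with a listed other arm belonged to such a pair.

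The 19-nt and 25-nt sequences with the most reads also had a matching partner. PC-5p-10032_69 with 188 reads faced the 21-nt PC-3p-24721_24 with 43 reads (contig_65037, minus strand, 3861 to 3965), with overhangs of 1 and 3 nt. PC-5p-5295_120, with 96 and 98 reads on its 2 listed precursors (contig_139408, minus strand, 283 to 369, and contig_71102, minus strand, 338 to 454), faced the 24-nt PC-3p-104053_4 with 6 reads on each, with overhangs of 3 and 2 nt. The 23-nt PC-3p-797083_2 with 4 reads faced the 24-nt PC-5p-70114_6 (contig_141175, minus strand, 119 to 286), which had an overhang of 2 nt against 1 nt for the 23-nt arm.

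On the other 25 hairpins the listed arms did not meet in this way. Both overhangs were within 6 nt of 0 on 6 of them and beyond that on 19, with values from -81 to 66 nt. PC-5p-10590_63 and its listed other arm were 63 and 66 nt out of step, PC-5p-20699_30 and its other arm 14 and 15 nt, and PC-5p-47295_10 and the 21-nt PC-3p-88762_5 (46 and 37 reads) 10 and 9 nt. The listed arms of these abundant sequences thus did not face each other end to end. On 2 hairpins, those of PC-5p-107654_4 and PC-5p-220931_2 (2 reads, named after its values were seen), the listed arms overlapped each other in the precursor by 9 and 14 nt.

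**Figure D3:**
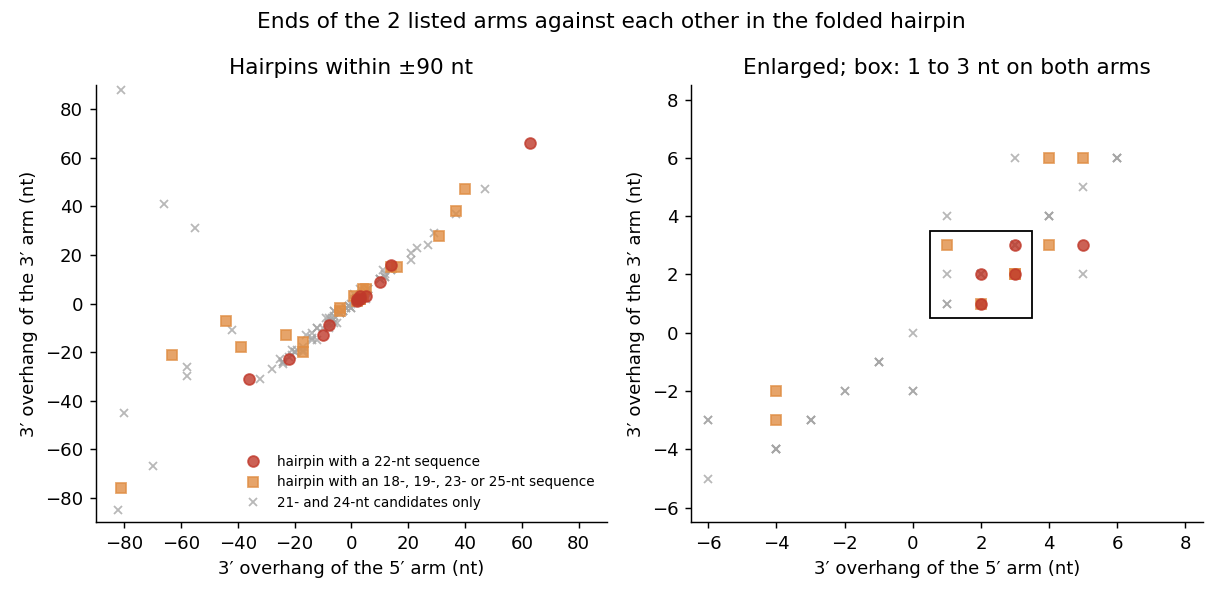
Overhang of the 5′ arm against that of the 3′ arm in nt for every candidate hairpin with both arms listed, left within 90 nt of 0 and right enlarged; circles have a 22-nt sequence, squares another unusual length and crosses 21- and 24-nt candidates alone. The box marks overhangs of 1 to 3 nt on both arms, which 8 of 33 hairpins of unusual length and 12 of 102 of the others reach; 2 hairpins lie outside the drawn range, 2 have an end that could not be placed, and some points coincide.

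Not all listed sequences were identical to their precursor on the contig. Of the 42, 22 matched a listed precursor base for base (52.4%, 36.4 to 68.0%) and 20 differed from it at 1 base, against 55.6% (43.4 to 67.3%) and 54.7% (47.8 to 61.5%) identical among 21- and 24-nt candidates. No candidate differed at more than 1 base, a count of 0 of 326 that allows up to 0.920%. Of the 18 sequences with at least 10 reads, 12 were identical (66.7%), and of the 24 under 10 reads, 10 (41.7%), with overlapping intervals of 41.0 to 86.7% and 22.1 to 63.4%.

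Differences at the last base occurred in 4 of the 20 sequences that differed (20.0%, 5.73 to 43.7%), against 1 of 32 at 21 nt (3.12%, 0.0791 to 16.2%) and 9 of 96 at 24 nt (9.38%, 4.38 to 17.1%), with overlapping intervals. Written with the contig base first, the position from the 5′ end and the listed base, they were G25C in PC-5p-5295_120, G23C in PC-3p-797083_2, G22T in PC-3p-655791_1 and A23C in PC-3p-94747_4, the last of them outside the naming rule. A base that is not in the contig thus closes PC-5p-5295_120, the most-read sequence of the set, on both of its listed precursors. Of the 22-nt sequences with the most reads, PC-3p-10563_64 carried G6A, PC-5p-28084_20 C14T and PC-5p-20282_34 C20T, while PC-3p-5232_125, PC-5p-10590_63 and PC-5p-47295_10 were identical to their contigs. The source of these differences was not tested.

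Some of the set were near copies of candidates of 21 or 24 nt. A stretch of at least 15 nt was shared on the same strand with a listed 21- or 24-nt sequence by 9 of the 42 (21.4%, 10.3 to 36.8%) and of at least 18 nt by 5. None shared such a stretch with a miRBase-matched sequence on either strand, which allows up to 7.14%. By length they were 3 of 18 at 22 nt, 3 of 14 at 23 nt and 3 of 5 at 25 nt, and none of 5 at 18 or 19 nt, which allows up to 60%. Candidates of 24 nt also shared stretches of at least 15 nt with each other, as PC-3p-13103_49 and PC-3p-49037_10 below do. Their share was not counted, so near copies are not shown to be particular to the set. The following sequences, shown to compare the ends, are the 2 closest cases, with bases 2 to 8 in capitals.
PC-5p-28084_20: cAACATCCcaggatacatgaac
PC-5p-111483_4: aACATCCCaggatacatgaac
PC-3p-58959_8: tTCATGTGtcctgggctgatgca
PC-3p-13103_49: gTTCATGTgtcctgggctgatgca
PC-3p-49037_10: aTTCATGTgtcctgggctgatgca

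The 22-nt PC-5p-28084_20 (48.5 reads, contig_16775, minus strand, 2380 to 2529) shared 21 nt with the 21-nt PC-5p-111483_4 (27 reads), which begins 1 base later. The 23-nt PC-3p-58959_8 (17 reads, listed on contig_247281, plus strand, 391 to 490, and contig_76450, plus strand, 6 to 152) was contained whole in the 24-nt PC-3p-13103_49 (51 reads) and PC-3p-49037_10 (10 reads), which add a base at the 5′ end. In both cases the sequences differed by 1 nt at the 5′ end and so in their seeds. PC-5p-28084_20 also matched the first 22 bases of the 24-nt PC-5p-16296_40 (112.5 reads) except at base 14, its own difference C14T. That base breaks the match into stretches under 15 nt, so the pair was not counted above.

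PC-3p-58959_8 also belonged to a wider group of related sequences. It shared 20 nt with the 23-nt PC-3p-797083_2 and 17 nt with the 25-nt PC-3p-867817_1 (2.5 reads), the 3 members of the set that shared at least 15 nt with each other. Of all stretches of 8 nt, TGGGCTGA and the overlapping CTGGGCTG were held by the most members on either strand, 5 of 42 each. TGGGCTGA was in PC-3p-58959_8, PC-3p-797083_2, PC-5p-309279_2, PC-3p-852970_1 and PC-3p-105915_4, of 23 or 25 nt. It was also in 27 of 212 candidates of 24 nt (12.7%, 8.56 to 17.99%), close to its share of 11.9% in the set (3.98 to 25.6%), and in 1 of 72 candidates of 21 nt. No 22-nt sequence held these exact letters, which allows up to 16.7%. On the same strand, the 22-nt PC-3p-1109628_1 (0.5 reads) nevertheless matched bases 2 to 23 of PC-3p-58959_8 with 2 differences. The more abundant 22-nt PC-5p-28084_20 (48.5 reads) was related on the opposite strand. Its near copy, the 24-nt PC-5p-16296_40, shared 15 nt with PC-3p-58959_8 on that strand. The related sequences thus include some of 22 nt. TGGGCTGA was picked because it was common in the set, so its count there is a description.

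The degradome library records 5′ ends of polyadenylated transcript fragments, however the ends arose. The authors' deposited table lists sites of small RNAs with such an end opposite them. Of the 42 sequences, 2 had a listed site (4.76%, 0.582 to 16.2%), against 3 of 72 candidates of 21 nt (4.17%, 0.868 to 11.7%), 3 of 212 of 24 nt (1.42%, 0.293 to 4.08%) and 56 of 179 matched sequences (31.3%, 24.6 to 38.6%). None of the 22-nt sequences had one, a count of 0 of 18 that allows up to 16.7%. The transcripts carry assembly names alone, and their genes were not analysed here. Both sites are shown 5′ to 3′ with the base at the listed cleavage position in capitals.
Site of PC-5p-5295_120: cgcgagguccgccgcAacucgcgca
Site of PC-3p-1103724_1: cuuuguacAaaaacuucu

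The site of PC-5p-5295_120, the most-read sequence of the set, had a clear peak. At position 444 of CL6218.Contig2, a transcript of 538 nt, 31 of 38 reads began (81.6%, 65.7 to 92.3%), all of which matched 1 place alone. The remaining 7 reads began at position 198, and no other position of the transcript had a read. The base at position 444 faces base 10 of the small RNA, the usual place of microRNA-guided cleavage. In the listed alignment (positions 429 to 453) bases 1 to 20 of the small RNA were paired, and bases 21, 22, 24 and 25 were not. Base 25 is the one that differs from the contigs. The last 20 bases of the site, with T read as U, differ at 1 base from a stretch of the other arm PC-3p-104053_4. The site thus resembles the opposite arm of the hairpin, and whether the transcript is related to the hairpin was not tested. The authors' deposited table gives category 0, p = 0.00324 and a score of 4 to this site.

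PC-3p-1103724_1, an 18-nt sequence with 1 read and the difference A17T, had a site at position 1713 of Unigene5758, a transcript of 2086 nt, that did not stand out. There 15 of 411 reads began (3.65%, 2.06 to 5.95%), again opposite base 10, and 55 positions of the transcript had reads. The listed position ranked 6 among them, the highest being position 1317 with 22 reads (5.35%). Bases 17 and 18 were unpaired in the alignment (positions 1705 to 1722), and the authors' deposited table gives category 2, p = 0.508 and a score of 2.

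**Figure D4:**
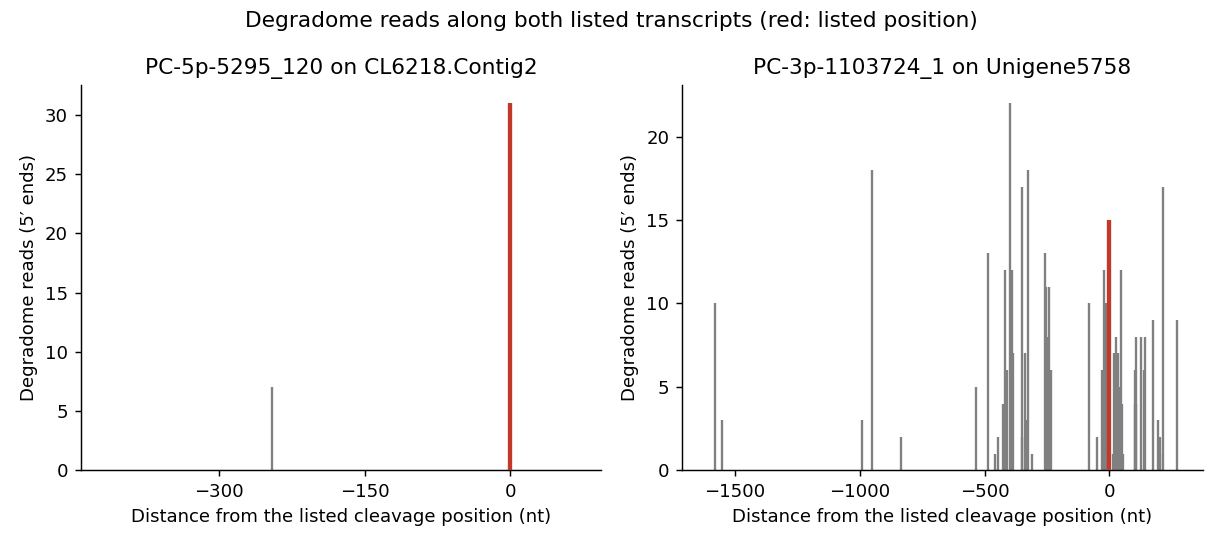
Degradome reads by distance in nt from the listed cleavage position (red) along the whole of both transcripts, for the 25-nt PC-5p-5295_120 (left) and the 18-nt PC-3p-1103724_1 (right). The listed position holds 31 of 38 reads on the left, and 15 of 411 reads on the right, where other positions reach 22.

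A listed site also belonged to 3 close relatives of the set. The 21-nt PC-5p-111483_4, which lies within PC-5p-28084_20, was listed at position 1622 of Unigene7156 with 4 of 3005 reads (0.133%). The 21-nt PC-3p-53866_10, the other arm of the 22-nt PC-5p-45233_11 (20 reads), was listed on a pair of contigs of the same cluster, with 21 of 3903 reads at position 928 of CL2665.Contig1 and 21 of 3849 reads at position 748 of CL2665.Contig2, none of which matched 1 place alone. The 24-nt PC-3p-129934_3, the other arm of the 23-nt PC-5p-234296_2 (3 reads, named after its values were seen), was listed with 7 of 145 reads on Unigene10101. PC-3p-129934_3 is also listed on a hairpin of 24-nt candidates alone (contig_40446), with overhangs of 2 nt on either side. Each of these shares was under 5%, and in the authors' deposited table the sites were of category 2 or 3.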

How the data were processed

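Reads per listed entry came from 1 small RNA library, and reads at each position of listed transcripts from 1 degradome library. The extracts were pooled root, stem and leaf RNA, with Trizol and the TruSeq Small RNA kit, per the labels' protocols. The small RNA values are estimated counts deposited by the authors, not normalized: of 569 entries, 115 were not whole, 7 of them among the 46 entries of the set, and how such values were reached is not stated. Sums over entries were not rounded, except to give an interval. Per the file headers, a value counts reads of an isoform at an arm, and whether reads of neighbouring lengths are included is not stated. Folding energy and index are scores deposited by the authors, checked against RNAfold 2.7.2. Candidates (group gp4a) were reads with no match to a selected miRBase precursor whose extended genome sequence may form a hairpin, per the file headers. The aligner and the genome build: not given in the sources used here. No annotation of the contigs was used. Coordinates are as the authors give them.

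The degradome columns have no header and were read from their values as position, reads, reads divided by matches, the reads with a single match, and category. Category, p-value and score are the authors' deposited values. Sequences were placed on their precursor without gaps, and overhangs taken from the RNAfold structure, an unpaired end being carried to the nearest paired base. Shares have exact (Clopper-Pearson) intervals and medians order-statistic intervals at 95%, and a count of 0 allows 3 counts. With 1 library of each kind no test was run, and nothing was called as changed. The procedures were tested on simulated data. Python 3.11.15, NumPy 2.4.6, SciPy 1.17.1 and matplotlib 3.10.9 were used. Named sequences were the 6 of 22 nt with the most reads, the 2 of each other length with the most reads, those with a degradome site, and those whose other arm was listed with at least 10 reads on either arm, 28 in all. The members and lists were chosen with earlier results of these data known.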

Additional observations from a re-analysis of the deposited data

How the results depend on the processing

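With sequences of at least 10 reads, 11 were of 22 nt, against 18 in all, and 11.1% of the set began with adenine, against 26.2%; weighted by reads the adenine share was 4.398%. The share of candidate reads was 16.4% with the most-read candidate left out, against 14.1%. Going by the authors' deposited table, with category 0 or 1, or with p no higher than 0.05, 1 pair of a sequence with a transcript was left of 2. The other alternatives run moved no share or median of the set beyond its interval: minimum reads, weighting by reads, contained sequences, the highest entry of each sequence, RNAfold energies, entries counted singly, an 18-nt stretch or either strand, overlapping coordinates and merged contigs. Alternatives on identity to the precursor, unpaired bases and the shared 8-nt stretch were chosen after seeing the data. No paired analysis was possible because each library stands alone. Depth is 1 limit: 24 of 42 sequences had fewer than 10 reads, so the low read numbers of single sequences, arms and sites cannot be ranked.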

Other observations

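The precursors of 5 of the 42 sequences (11.9%, 3.98 to 25.6%) overlapped another listed precursor on the opposite strand of the same contig. This is not shown to be particular to the set, since the share among 21- and 24-nt candidates was not counted. Hairpins of 24-nt candidates alone also overlapped in this way, as on contig_155368 (plus strand, 1810 to 1949, and minus strand, 1782 to 1921). On contig_16775 the hairpin of PC-5p-28084_20 (minus strand, 2380 to 2529) overlapped that of the 24-nt PC-5p-16296_40 (plus strand, 2390 to 2529, 112.5 reads). The sequences are listed on opposite strands, but PC-5p-28084_20 differs from the first 22 bases of PC-5p-16296_40 only at base 14, its own difference C14T from the contig. The minus strand of the contig thus reads there as those 22 bases do. From which strand either sequence came cannot be told. On contig_141175 the hairpin of PC-3p-797083_2 (minus strand, 119 to 286) overlapped that of PC-5p-2111_271 (plus strand, 75 to 258, 283.5 reads), with which it shared 22 nt on the opposite strand. The others were PC-5p-45233_11, PC-5p-309279_2 and PC-3p-867817_1. Among single-base differences from the contig, transitions (A with G, or C with T) were 11 of 20 in the set (55.0%, 31.5 to 76.9%), 7 of 9 of them at 22 nt, against 20 of 32 at 21 nt (62.5%, 43.7 to 78.9%) and 77 of 96 at 24 nt (80.2%, 70.8 to 87.6%).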
